A study of Mus musculus with 2 samples.

Results

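The transcription factors that give the embryonic cortical sheet its areas were followed through the cell groups of newborn mouse telencephalon. They were Emx1, Emx2, Lhx2, Pax6, Nr2f1 and Sp8, 6 of the 27998 genes in the count matrices. They were chosen by name with earlier results of these data known, and each was found there. The study asked how loss of STING in neural cells alters the cortex, and for this it made 2 droplet libraries (10x Genomics) from C57BL/6 mice at postnatal day 0, from tissue that the labels call telencephalic and the study's methods call cortex. In these libraries every captured RNA molecule carries its own barcode, a unique molecular identifier (UMI). One library was labelled WT. The other was labelled STINGf/f;Nestin-Cre (cKO), with floxed STING alleles and Cre under the Nestin promoter, which is known to be active in the neural lineage. The study's text calls the control mice STINGfl/fl in places, where the labels say WT, and the number of animals in a library was not given in the sources used here. From its single-cell data the study had reported dysregulated Emx2 and Lhx2 in its progenitor cluster. The 6 factors are thus not a list drawn apart from these data. There was 1 library per genotype and so no replicate, no test was run, and all intervals are 95% intervals for counting error only.

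Areal identity of the cortex is set up in the ventricular zone, where signalling centres at the edges of the cortical sheet place graded amounts of a few transcription factors in progenitor cells. Emx2 and Nr2f1 (also called COUP-TFI) are known to be graded high at the back and Pax6 and Sp8 high at the front, and shifts in their balance move the borders of sensory and motor areas. Emx1 and Emx2 are homeodomain factors of dorsal telencephalic progenitors, and Lhx2 is a LIM-homeodomain factor that selects cortical fate against hem fate. Pax6 and Sp8 also act outside the cortical ventricular zone, Pax6 in olfactory bulb interneurons and their progenitors and Sp8 in interneurons from the lateral and caudal ganglionic eminences. By birth most cortical neurons have left the ventricular zone, and several of these factors remain in use in postmitotic neurons.

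Filters on genes and mitochondrial reads and the removal of doublets left 6615 WT cells (median depth 6560 UMIs) and 5973 cKO cells (median depth 7537 UMIs) out of 10715 and 9198 barcodes, of which 19 occurred in both matrices. The deleted gene Tmem173, which encodes STING, had 128 UMIs in WT and 18 in cKO. Most of them lay outside the neural lineage, 80 and 14 in endothelial-like cells (21.3 and 10.6 CPM, 16.9 to 26.5 and 5.78 to 17.7) and 23 and 3 in microglia-like cells (33.6 and 6.27 CPM, 21.3 to 50.4 and 1.29 to 18.3). Radial glia/astrocyte-like cells held 7 and 1, cycling Dlx- cells 7 and 0, intermediate progenitor-like cells 2 and 0, and projection neuron-like cells 0 and 0, so the total says little of the deletion in neural cells. Xist had 10 and 71349 UMIs and 4 Y-linked genes together 9805 and 6, so genotype, sex and animal cannot be told apart in any comparison between the libraries. Groups were set by UMIs of marker genes, none of them among the 6 factors, and held 94.2% of WT and 92.7% of cKO cells. A group is a range of a marker count and not a type proven by other means. Over both libraries 577 projection neuron-like, 1306 upper-layer neuron-like, 432 deep-layer neuron-like, 328 astrocyte-like and 660 olfactory bulb neuroblast-like cells had just the minimum number of markers. Deep-layer neuron-like cells had 0 own markers among their 10 leading genes, which Nts, Hs3st4 and Rprml led. Olfactory bulb neuroblast-like cells had 3 of their own there (Sp9, Pbx3 and Tshz1), 5 of the GABAergic neuron list to which they belong, and Foxp2, and these genes are also used by immature striatal neurons. Such cells and striatal neuron-like cells were present in both libraries, so both matrices held cells usually found outside the cortex, and differences in dissection cannot be told apart from genotype. Radial glia/astrocyte-like cells without any astrocyte marker are called by that description, since their leading genes, Gas1, Btg2 and Olig2 among them, name no type. Levels are in CPM, the UMIs of a gene per 1e6 UMIs of the group in that library.

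In GENCODE M21 (GRCm38) Emx1 (ENSMUSG00000033726) lies on chromosome 6 from 85187438 to 85204462, Emx2 (ENSMUSG00000043969) on chromosome 19 from 59458372 to 59465357 and Sp8 (ENSMUSG00000048562) on chromosome 12 from 118846329 to 118852576. Lhx2 (ENSMUSG00000000247) spans 38339281 to 38369733 and Pax6 (ENSMUSG00000027168) spans 105668900 to 105697364 on chromosome 2, and these 5 genes are on the plus strand. Nr2f1 (ENSMUSG00000069171) lies on the minus strand of chromosome 13 from 78188973 to 78199757. The promoters of Lhx2, Pax6 and Sp8 are shown because these members differed between the libraries in different directions (higher, mixed and lower in cKO) and because their RefSeq start lies within 4 bases of the start of the annotated gene. Each line holds the 250 bases before the start, from RefSeq on GRCm38.p6, 5′ to 3′ on the plus strand. Capitals mark GC boxes, the letters GGGCGG on either strand, a motif known to be bound by zinc finger factors of the Sp family.
Lhx2, chr2:38339031-38339280: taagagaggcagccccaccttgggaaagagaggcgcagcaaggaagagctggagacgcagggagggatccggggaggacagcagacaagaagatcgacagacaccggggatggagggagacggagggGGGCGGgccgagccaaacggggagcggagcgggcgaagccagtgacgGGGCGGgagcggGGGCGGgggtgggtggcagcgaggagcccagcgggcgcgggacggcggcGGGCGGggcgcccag
Pax6, chr2:105668646-105668895: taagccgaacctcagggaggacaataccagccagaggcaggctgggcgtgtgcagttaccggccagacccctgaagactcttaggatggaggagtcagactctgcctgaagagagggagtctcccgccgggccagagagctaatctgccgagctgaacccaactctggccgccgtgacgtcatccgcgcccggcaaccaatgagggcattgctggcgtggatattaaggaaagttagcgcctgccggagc
Sp8, chr12:118846079-118846328: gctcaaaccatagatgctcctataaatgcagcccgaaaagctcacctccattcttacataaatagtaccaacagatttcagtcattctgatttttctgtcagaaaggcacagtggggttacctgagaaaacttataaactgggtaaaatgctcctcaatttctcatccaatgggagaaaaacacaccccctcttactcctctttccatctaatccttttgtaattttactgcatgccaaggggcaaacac
The Lhx2 window held 4 GC boxes and 25 CpG dinucleotides, the Pax6 window 0 and 15, and the Sp8 window 0 and 1. Of 32851 RefSeq windows of this length 32.7% held a GC box, and the median window had 6 CpGs. The GC content was 72.8%, 60.8% and 40.8% in that order, against a median of 52.4%. TAAT, the core that homeodomain factors bind, was found 0 times in the Lhx2 window and 2 times in each of the others, counting either strand, and 54.9% of all windows held it. RefSeq gave 2 windows for Lhx2, 2 for Pax6 and 3 for Sp8, and only the window nearest the start of the annotated gene was shown and counted. These values describe the letters and were not set against the differences between the libraries.

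Levels were ordered over 13 neural and glial groups with at least 50 cells in each library. Emx1 and Lhx2 shared their highest group, as did Pax6 and Nr2f1, and for 5 of the 6 factors the group with the highest level was the same in both libraries. Emx1 was highest in intermediate progenitor-like cells, the Eomes-expressing cells between radial glia and neurons, with 209 CPM (181 to 241) in WT and 326 CPM (297 to 358) in cKO. Upper-layer and deep-layer neuron-like cells came next in both libraries (65.6 and 62.3 CPM in WT, 138 and 89.3 CPM in cKO), and in WT these neighbours overlapped. Emx1 is known as a gene of the dorsal, glutamatergic lineage, and in MGE and CGE interneuron-like, striatal neuron-like and olfactory bulb neuroblast-like cells it was at or under 18.1 CPM in both libraries.

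Emx2 was highest in Cajal-Retzius-like cells, the Reln-expressing neurons of the marginal zone, with 329 CPM (295 to 367) in WT against 432 CPM (398 to 468) in cKO. Of these cells 63 of 65 in WT and 75 of 80 in cKO held an Emx2 UMI. The 4 next groups, intermediate progenitor-like, cycling Dlx-, astrocyte-like and radial glia/astrocyte-like cells without an astrocyte marker, lay between 60.8 and 77.2 CPM in WT and between 67.2 and 101 CPM in cKO, and neighbours among them overlapped. Both layers of projection neuron-like cells were far below, at 16.1 and 13.6 CPM in WT.

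Lhx2 was highest in intermediate progenitor-like cells (835 CPM in WT, 1235 CPM in cKO), where 134 of 141 WT and 169 of 170 cKO cells held a UMI. Cycling Dlx- cells, radial glia/astrocyte-like cells without an astrocyte marker and astrocyte-like cells followed, between 379 and 393 CPM in WT and between 588 and 699 CPM in cKO. Upper-layer neuron-like cells (327 and 521 CPM) stood above deep-layer neuron-like cells (182 and 343 CPM) with no overlap in either library. Interneuron-like cells were lower still, at 22.7 CPM in the MGE and 57.1 CPM in the CGE group of WT.

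Pax6 was highest in astrocyte-like cells of both libraries (201 and 211 CPM). Its nearest neighbour was the cycling Dlx+ group in WT (174 CPM) and the cycling Dlx- group in cKO (210.1 CPM), each within counting error of the astrocyte-like level. In upper-layer and deep-layer neuron-like cells it lay between 5.06 and 6.37 CPM over both libraries. Pax6 is known to be switched off as cortical neurons leave the ventricular zone and kept on in part of the olfactory bulb lineage, and olfactory bulb neuroblast-like cells were in between, with 64.5 CPM in WT and 35.8 CPM in cKO.

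Nr2f1, a nuclear receptor, had at least 50 UMIs in all 13 groups. It was highest in astrocyte-like cells (756 CPM in WT and 889.8 CPM in cKO), in cKO within counting error of CGE interneuron-like cells. CGE interneuron-like cells had 564 and 877 CPM and MGE interneuron-like cells 181 and 280.1 CPM, a contrast known for this gene in the ganglionic eminences. Striatal neuron-like cells, at 85.1 and 90.8 CPM, were the lowest of the 13 in both libraries.

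Sp8 was found in Dlx-expressing groups. The olfactory bulb neuroblast-like, CGE interneuron-like and cycling Dlx+ groups of WT had 133, 129 and 109.9 CPM, neighbours that overlapped, and MGE interneuron-like cells, next in order, had 17.1 CPM. In cKO cycling Dlx+ cells were highest (75.3 CPM), ahead of olfactory bulb neuroblast-like cells (59.6 CPM), again with overlap. Projection neuron-like cells held 25 Sp8 UMIs in 2672 WT and 12 in 2858 cKO cells, and cycling Dlx- cells 16 and 7, so what follows on Sp8 concerns GABAergic cells and hardly the cortical ventricular zone.

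**Figure D1:**
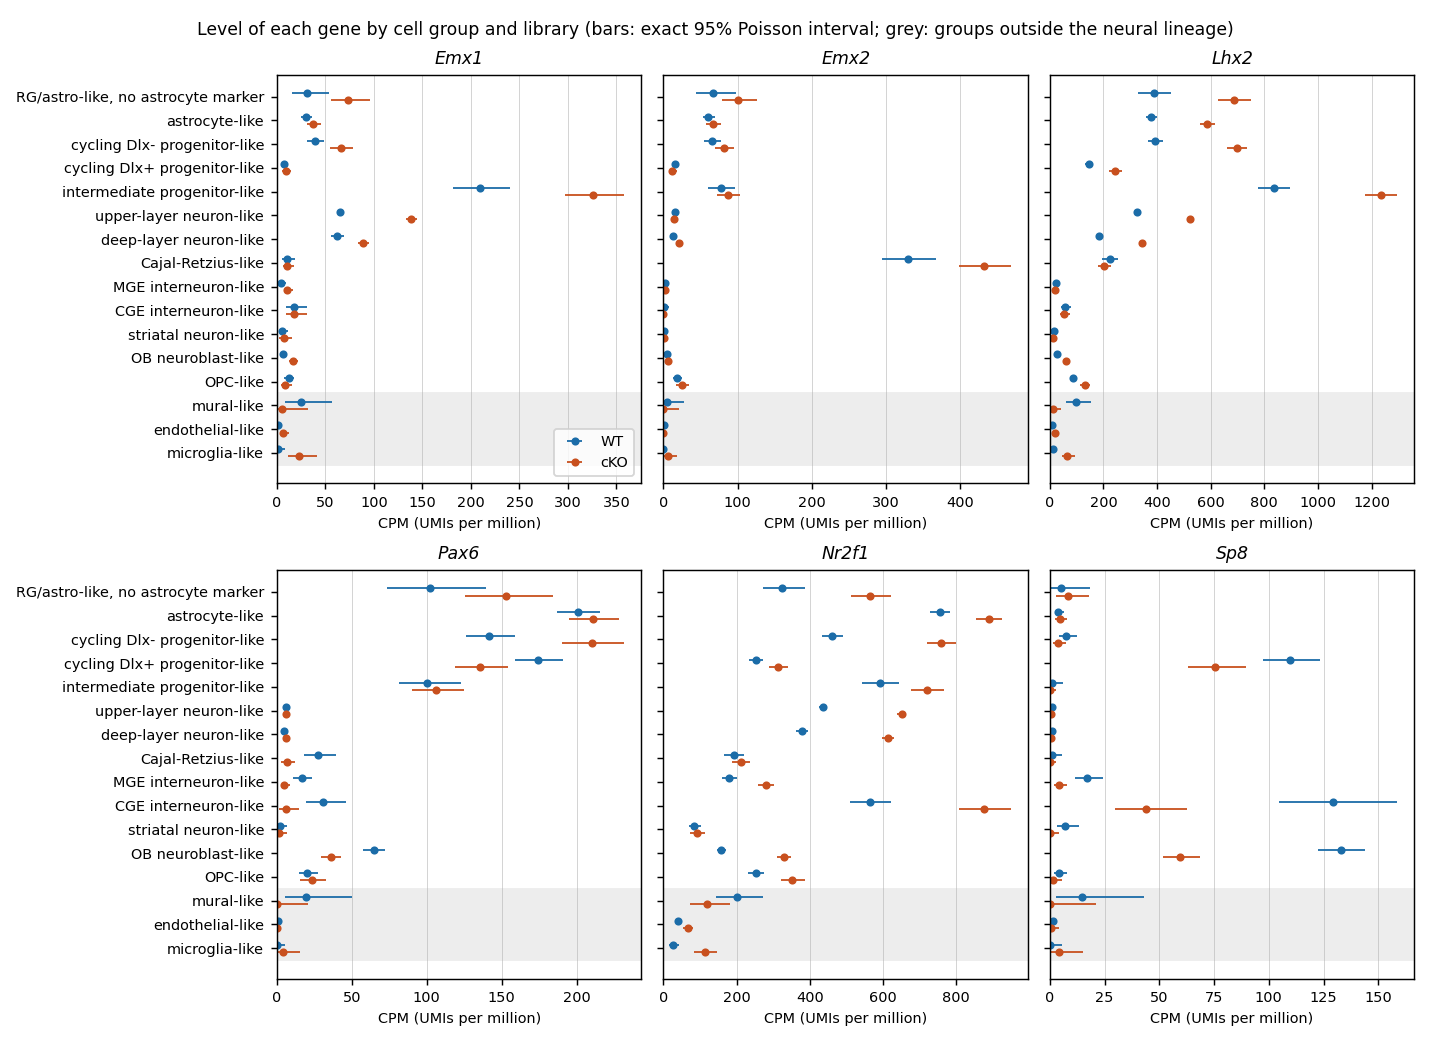
CPM of each gene (x axis, linear, its own scale per gene) in 16 cell groups (y axis), WT in blue and cKO in orange, with exact 95% Poisson intervals of 1 library each; the grey band marks mural-like, endothelial-like and microglia-like cells. Emx1 and Lhx2 peak in intermediate progenitor-like cells (209 and 835 CPM in WT), Emx2 in Cajal-Retzius-like cells (329 CPM), and in the 3 groups with most Sp8 WT lies above cKO.

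Free RNA gives UMIs in cells that do not make a transcript, and endothelial-like and microglia-like cells served as its measure. Endothelial-like cells had 6.92 CPM of Lhx2 in WT and 19.6 CPM in cKO, 41.0 and 66.5 CPM of Nr2f1, and 1.06 and 6.796 CPM of Emx1. Microglia-like cells had 10.2 and 64.8 CPM of Lhx2, 27.7 and 113 CPM of Nr2f1, and 1.46 and 23.0 CPM of Emx1. The cKO values of the latter rest on few of its 34 cells, since 7 cells held all 31 Lhx2 UMIs and 1 cell held 23 of the 54 Nr2f1 UMIs. The cKO values of endothelial-like cells were uneven too. Of 70 cells 21 held an Nr2f1 UMI, the highest of them 24 UMIs, and 8 held an Lhx2 UMI, the highest 10. Thinned to 1000 UMIs per cell, the endothelial-like shares with Nr2f1 overlapped (0.62 to 5.72% in WT and 0.92 to 12.4% in cKO). In CPM this background was higher in cKO beyond counting error for all 3 factors in both groups, but counting intervals do not allow for UMIs gathered in single cells. In endothelial-like cells the log2 ratio was 2.67 (0.83 to 4.83) for Emx1, 1.51 (0.66 to 2.35) for Lhx2 and 0.70 (0.30 to 1.08) for Nr2f1, and in microglia-like cells 3.98 (1.20 to 9.41), 2.67 (1.46 to 4.09) and 2.03 (1.25 to 2.86). For Nr2f1 the ratio in endothelial-like cells was as large as that in projection neuron-like cells (0.63 (0.59 to 0.66)), at a lower level (41.0 and 66.5 against 420.1 and 649 CPM). In WT 63 of 176 endothelial-like cells held an Nr2f1 UMI and 17 an Lhx2 UMI. Whether endothelial-like cells make Nr2f1 themselves was not tested. The part of free RNA in the differences between the libraries was not tested. Mural-like cells (30 in WT, 27 in cKO) were uneven, with 98.3 and 11.3 CPM of Lhx2, 201 and 119 CPM of Nr2f1 and 24.6 and 5.67 CPM of Emx1. Emx1 and Lhx2 in projection neuron-like, intermediate progenitor-like and cycling Dlx- cells lay above the endothelial-like and microglia-like values of their own library with no overlap of intervals, whereas Emx1 in cycling Dlx- cells of WT overlapped the mural-like interval. Emx1 in astrocyte-like cells of cKO (37.7 CPM) overlapped the microglia-like interval (11.5 to 41.2), as did Emx1 in the whole radial glia/astrocyte-like group of cKO. In MGE and CGE interneuron-like, striatal neuron-like and olfactory bulb neuroblast-like cells of cKO, Lhx2 (12.98 to 60.5 CPM) and Emx1 (7.08 to 17.5 CPM) did not exceed the microglia-like values. Against endothelial-like cells, Lhx2 in olfactory bulb neuroblast-like (52.4 to 69.4) and CGE interneuron-like cells (38.1 to 74.5) of cKO lay above the endothelial-like interval (12.8 to 28.8) with no overlap, as did Emx1 in olfactory bulb neuroblast-like cells (12.99 to 22.2 and 3.11 to 12.9).

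Between the libraries a gene counts as different where its log2 ratio of CPM, cKO over WT, lay at least 1.5-fold from the median log2 ratio of all genes with at least 50 UMIs over both libraries in that group. Over all kept cells 4 of the 6 factors were higher in cKO, against 18.2% of 14696 genes, and 1 was lower, against 24.8%. Projection neuron-like cells had 3 of 5 measured factors higher (18.7% of all genes) and 0 lower (23.8%). In its upper-layer part the numbers were 3 of 5 (19.4%) and 0 (24.7%), and in its deep-layer part 4 of 5 (15.9%) and 0 (20.7%). Radial glia/astrocyte-like cells had 2 of 5 measured factors higher (14.00% of all genes) and 0 lower (18.7%), their astrocyte-like part 1 of 5 (13.7%) and 0 (18.3%) and those without an astrocyte marker 3 of 5 (15.1%) and 0 (16.8%). Cycling Dlx- cells gave 3 of 5 (14.6%) and 0 (18.1%), cycling Dlx+ cells 1 of 5 (14.7%) and 0 (20.1%) and intermediate progenitor-like cells 1 of 5 (17.01%) and 0 (20.9%). GABAergic neuron-like cells had 3 of 6 measured factors higher (17.7% of all genes) and 2 lower (23.7%). Among their parts, MGE interneuron-like cells gave 1 of 2 (17.9%) and 0 (22.6%), CGE interneuron-like cells 1 of 3 (17.04%) and 1 (20.6%), striatal neuron-like cells 0 of 1 (15.1%) and 0 (18.6%) and olfactory bulb neuroblast-like cells 3 of 5 (17.3%) and 2 (22.3%). It was 0 of 3 (11.5%) and 0 (14.2%) in Cajal-Retzius-like and 1 of 4 (14.97%) and 0 (20.03%) in OPC-like cells. The share of factors called higher was thus at least 3 of 5 in projection neuron-like cells, both of their layers, cycling Dlx- cells, radial glia/astrocyte-like cells without an astrocyte marker and olfactory bulb neuroblast-like cells, while 1 of 5 in astrocyte-like, cycling Dlx+ and intermediate progenitor-like cells lay near the share of all genes. In olfactory bulb neuroblast-like cells Emx1 and Lhx2, both called higher, lay within the microglia-like interval of cKO.

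In CPM, Emx1 was higher in the cKO library in projection neuron-like, intermediate progenitor-like and cycling Dlx- cells. In projection neuron-like cells it was at 65.4 CPM in WT (1686 UMIs in 2672 cells) and at 119 CPM in cKO (3597 UMIs in 2858 cells), a log2 ratio of 0.87 (0.78 to 0.95) where the median gene stood at -0.17. The ratio was 1.08 (0.98 to 1.18) in upper-layer and 0.52 (0.34 to 0.70) in deep-layer neuron-like cells, and these intervals did not overlap. This layer contrast holds for CPM alone. With each cell thinned to 2000 UMIs, Emx1 was found in 12.6% of WT and 25.9% of cKO upper-layer neuron-like cells. In deep-layer neuron-like cells the shares were 8.96% and 18.4%, a rise of similar proportion. A difference between the layers was not tested in these shares. Among progenitors, the UMIs were 198 and 451 in intermediate progenitor-like cells (log2 ratio 0.64 (0.40 to 0.89)) and 84 and 127 in cycling Dlx- cells (0.74 (0.33 to 1.15)). Radial glia/astrocyte-like cells held 144 and 219 (0.66 (0.35 to 0.97)). All 3 depended on the processing. The ratio in intermediate progenitor-like cells was 0.15 with groups set on counts thinned to 2000 UMIs, that in cycling Dlx- cells 0.56 with a stricter filter on cells and 0.56 with the highest 5% of doublet scores removed, both less than 1.5-fold, and that in radial glia/astrocyte-like cells 0.35 with the stricter filter. This filter kept only 1637 of 6615 WT and 1317 of 5973 cKO cells. The share of radial glia/astrocyte-like cells with an Emx1 UMI, each cell thinned to 1000 UMIs, was 2.62% in WT and 4.13% in cKO, and at 2000 UMIs 6.96% and 6.35%, with overlapping intervals at both depths. Of the radial glia/astrocyte-like cells 527 of 690 in WT and 307 of 538 in cKO were astrocyte-like. These had 30.0 and 37.7 CPM, and their interval (-0.06 to 0.72) included the median of all genes. The part of this makeup in the ratio of the whole group was not tested. Emx1 was called higher in 6 of 7 neural groups with enough UMIs, the exception being astrocyte-like cells, and 1 of the 6, olfactory bulb neuroblast-like cells (29 and 57 UMIs), lay within the microglia-like interval in cKO and above the endothelial-like one. Its ratio of 1.40 was 3.35 under the stricter filter and 0.50 with groups set on thinned counts.

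Emx2, the other member of this homeobox pair, was called higher in 1 of 9 neural groups. Radial glia/astrocyte-like cells had 62.9 CPM in WT and 73.9 CPM in cKO (log2 ratio 0.23 (0.01 to 0.46)), cycling Dlx- cells 65.4 and 81.4 CPM (0.32 (-0.02 to 0.66)) and intermediate progenitor-like cells 77.2 and 86.8 CPM (0.17 (-0.26 to 0.61)). The last 2 intervals hold no difference as well as differences of some size, so equal levels were not shown. In Cajal-Retzius-like cells 327 WT and 599 cKO UMIs gave a log2 ratio of 0.39 (0.19 to 0.59), above the median gene of that group (0.00) but within 1.5-fold of it. The group called was deep-layer neuron-like cells, with 13.6 and 20.6 CPM (0.59 (0.21 to 0.99)), while upper-layer neuron-like cells had 16.1 and 14.6 CPM (-0.14 (-0.39 to 0.11)), and these intervals did not overlap. Thinned shares of deep-layer neuron-like cells with Emx2 overlapped between the libraries, at 2.86% and 2.56% with 1000 UMIs and 3.75% and 6.08% with 2000. In cKO their level (17.8 to 23.6 CPM) overlapped that of microglia-like cells (1.29 to 18.3) and lay above that of endothelial-like cells (0 to 2.79).

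Lhx2 was called higher in 8 of 12 neural groups and lower in 0, and in the olfactory bulb neuroblast-like group among the 8, which in cKO lay within the microglia-like interval, the ratio of 1.23 was 0.20 with groups set on thinned counts. Radial glia/astrocyte-like cells had 379 CPM in WT (1840 UMIs in 690 cells) and 627 CPM in cKO (2925 UMIs in 538 cells), a log2 ratio of 0.72 (0.64 to 0.81). Both the astrocyte-like cells among them (0.63 (0.53 to 0.74)) and those without an astrocyte marker (0.83 (0.56 to 1.10)) were higher. Cycling cells were higher with Dlx transcripts (0.76 (0.56 to 0.97)) and without them (0.83 (0.70 to 0.96)). Projection neuron-like cells had 295 and 466 CPM (0.66 (0.62 to 0.70)). Here the ratio in deep layers (0.91 (0.81 to 1.01)) exceeded that in upper layers (0.67 (0.63 to 0.72)), the reverse of the Emx1 ratios of CPM. Intermediate progenitor-like cells, where Lhx2 was highest, had a ratio of 0.56 (0.44 to 0.69), within 1.5-fold of the median gene, and it was 0.16 with the stricter filter and 0.32 with groups set on thinned counts. Cajal-Retzius-like cells, known to come in part from the cortical hem that Lhx2 holds back, had 224 and 201 CPM (-0.15 (-0.41 to 0.11)), with 0.28 under the stricter filter.

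The Pax6 difference in CPM varied with the cell group. In radial glia/astrocyte-like cells it was at 187 CPM in WT and 203 CPM in cKO (log2 ratio 0.12 (-0.02 to 0.25)). Cycling Dlx- cells had 142 and 210.1 CPM (0.57 (0.35 to 0.79)), an interval above the median gene of that group (0.00), and cycling Dlx+ cells had 174 and 136 CPM (-0.36 (-0.59 to -0.13)), an interval below it (0.02), both within the 1.5-fold limit. Olfactory bulb neuroblast-like cells (894 in WT, 539 in cKO) held 288 and 119 UMIs, 64.5 and 35.8 CPM (-0.85 (-1.17 to -0.54)), and this was the 1 of 9 neural groups called lower. It depended on the processing, with -0.22 under the stricter filter and -0.28 with groups set on thinned counts. MGE interneuron-like cells held 29 and 11 UMIs, CGE interneuron-like cells 22 and 4, and Cajal-Retzius-like cells 27 and 9, all under 50. Projection neuron-like cells were at 6.28 and 6.48 CPM (0.04 (-0.26 to 0.35)), and 0.77 under the stricter filter. That filter also gave 1.06 in intermediate progenitor-like cells, where the reported ratio was 0.08 (-0.30 to 0.47).

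Nr2f1 was called higher in 7 of 13 neural groups and lower in 0, in neurons of both lineages. Projection neuron-like cells had 10830 WT and 19552 cKO UMIs, 420.1 and 649 CPM (log2 ratio 0.63 (0.59 to 0.66)), with 0.58 (0.54 to 0.62) in the upper and 0.69 (0.62 to 0.77) in the deep layers. The ratio was 0.63 (0.43 to 0.83) in MGE and 0.64 (0.45 to 0.82) in CGE interneuron-like cells. Olfactory bulb neuroblast-like cells, with 158 and 329 CPM, had the highest ratio of the 13 (1.06 (0.92 to 1.20)). Among dividing cells and glia, the cycling Dlx- group was at 461 and 759 CPM (0.72 (0.60 to 0.84)), while astrocyte-like cells were at 756 and 889.8 CPM (0.24 (0.16 to 0.31)), with no overlap of these intervals. Radial glia/astrocyte-like cells without an astrocyte marker were at 325 and 565 CPM (271 to 387 and 512 to 622). With cells thinned to 1000 UMIs, the shares with Nr2f1 overlapped in MGE (11.7% and 19.2%) and CGE interneuron-like cells (42.7% and 48.7%). They also overlapped in cycling Dlx- cells (32.9% and 48.9%), but lay apart in olfactory bulb neuroblast-like cells (14.1% and 21.9%). Striatal neuron-like (0.09 (-0.35 to 0.53)) and Cajal-Retzius-like cells (0.14 (-0.13 to 0.41)) had intervals that included the median gene.

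Sp8 was lower in the cKO library. Its UMIs numbered 593 and 198 in the same 894 and 539 olfactory bulb neuroblast-like cells, a log2 ratio of -1.16 (-1.40 to -0.92), or -0.71 with groups set on thinned counts. CGE interneuron-like cells held 93 UMIs in 103 and 30 in 116 cells (-1.56 (-2.21 to -0.95)). Both groups were called lower, and cycling Dlx+ cells, with 287 UMIs in 256 and 131 in 129 cells (-0.54 (-0.85 to -0.24)), lay within the limit, but were at -0.87 and past it with groups set on thinned counts. The marker lists differed too. The summed level of the 5 olfactory bulb neuroblast markers, all of them found, was 1691 CPM in WT and 1208 CPM in cKO within that group, and that of the 5 CGE interneuron markers, all found, 1162 and 918 CPM within theirs. The 7 GABAergic markers stood at 2707 and 2487 CPM in the first group and at 2189 and 2480.1 CPM in the second. The part of the makeup of these groups in the Sp8 difference was not tested.

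**Figure D2:**
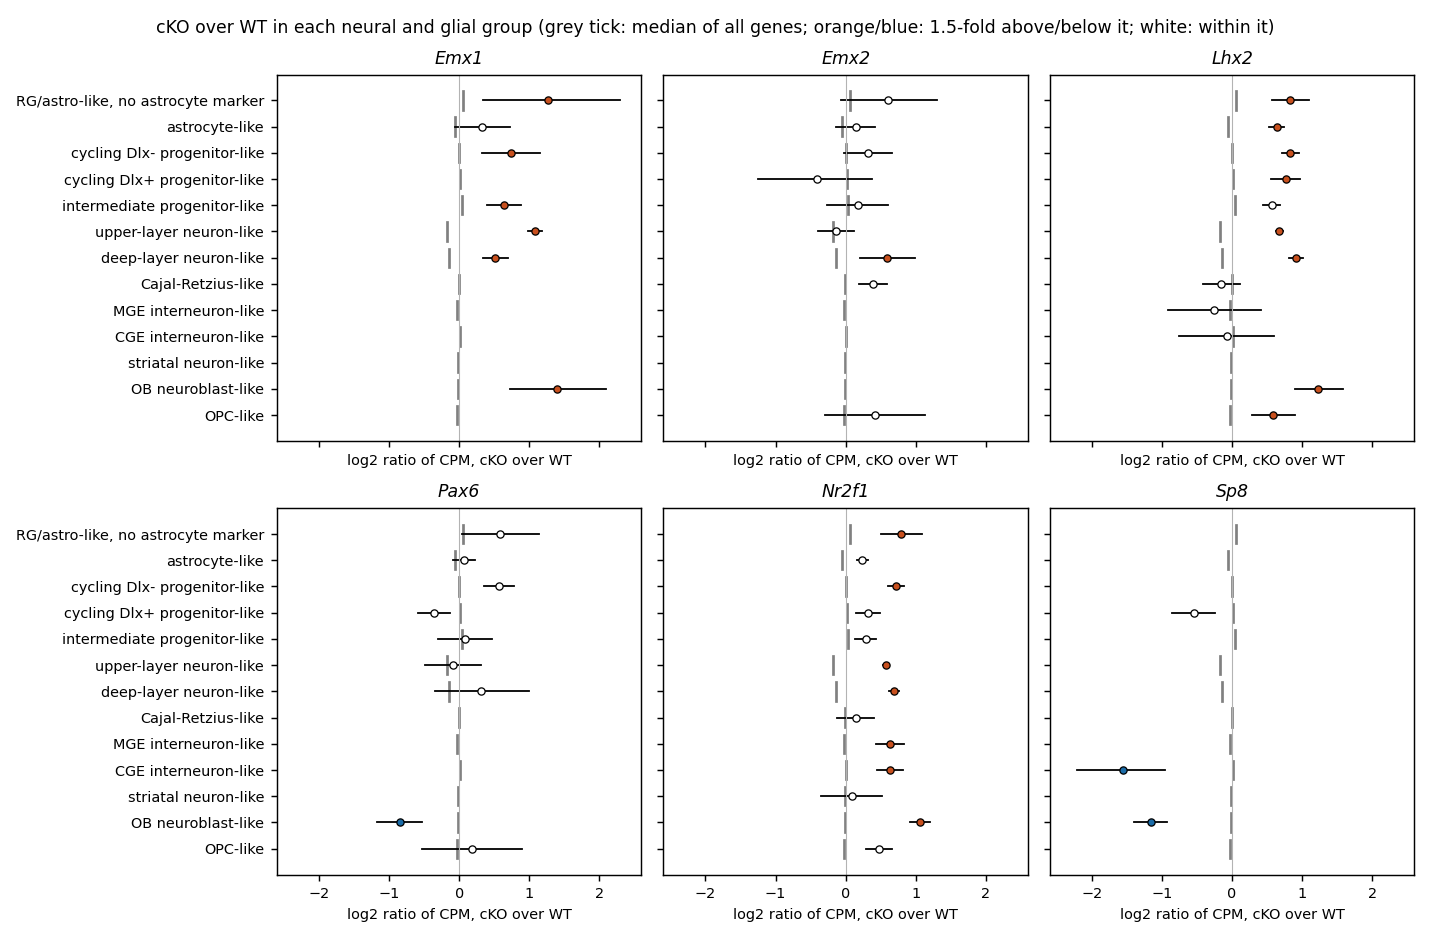
Log2 ratio of CPM, cKO over WT (x axis), of each gene in 13 neural and glial groups (y axis), drawn where the gene had at least 50 UMIs over both libraries, with 95% counting intervals; grey ticks mark the median of all genes in the group, and orange and blue points lie at least 1.5-fold above and below it. Emx1, Lhx2 and Nr2f1 lie right of the ticks in most groups, Emx2 near them, Pax6 on both sides, and Sp8 to the left in the 3 groups drawn.

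Other cell lists moved with the glial and neuronal groups as well. In radial glia/astrocyte-like cells the 8 radial glia markers, all found, summed to 7415 CPM in WT and 6006 CPM in cKO, the 5 astrocyte markers, all found, to 1131 and 549 CPM, and the 6 oligodendrocyte precursor markers, all found, to 639 and 264 CPM. The 7 projection neuron markers, all found, summed to 4071 and 3013 CPM in projection neuron-like cells. These lists were thus lower in cKO where Emx1 and Lhx2 were higher, and their part in the differences was not tested.

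The makeup of the libraries bore on the ratios over all cells. Over all kept cells the log2 ratios were 1.02 for Emx1, 0.44 for Emx2, 0.83 for Lhx2, -0.14 for Pax6, 0.66 for Nr2f1 and -1.18 for Sp8, with the median gene at -0.25. Projection neuron-like cells made up 40.4% of WT and 47.8% of cKO cells, and olfactory bulb neuroblast-like cells 13.5% and 9.02%. With both libraries weighted by the WT makeup of 24 groups the values became 0.87, 0.19, 0.71, -0.034, 0.57 and -0.92. All 6 ratios thereby left their counting intervals, and that of Pax6 has no fixed sign, being 0.12 with TMM factors and 0.24 under the stricter filter.

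To set aside depth, every cell was thinned to 1000 UMIs before the cells that held a factor were counted, and shallower cells stayed out (137 WT and 116 cKO cells in all, 28 and 16 of them projection neuron-like, 4 and 5 radial glia/astrocyte-like, 0 and 0 intermediate progenitor-like, 7 and 0 olfactory bulb neuroblast-like, and 0 and 2 endothelial-like). For projection neuron-like cells the share with Emx1 was 6.16% in WT and 11.9% in cKO (Clopper-Pearson intervals 5.28 to 7.15 and 10.7 to 13.1), with Lhx2 26.1% and 36.7% (24.4 to 27.8 and 35.0 to 38.5), and with Nr2f1 33.4% and 44.2% (31.6 to 35.2 and 42.4 to 46.1). In endothelial-like cells, the background, Emx1 was found in 0 of 176 cells (which allows a share of up to 1.70%) in WT and in 1.47% in cKO, Lhx2 in 1.70% and 2.94%, and Nr2f1 in 2.27% and 4.41%. The median depths before thinning were 14972 and 13880 UMIs in these and 8021.5 and 8479 in the neurons. Each of the 3 factors was thus found in more neurons of the cKO library. Unthinned, the neuron shares were 38.7% and 58.6% for Emx1, 73.3% and 82.9% for Lhx2 and 79.8% and 86.5% for Nr2f1.

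Among progenitors and radial glia/astrocyte-like cells the thinned shares of Lhx2 differed beyond counting error in some groups. It was found in 49.6% of WT and 67.6% of cKO intermediate progenitor-like cells (41.1 to 58.2 and 60.1 to 74.6) and in 29.7% and 41.1% of radial glia/astrocyte-like cells (26.3 to 33.3 and 36.9 to 45.4), while the intervals overlapped in cycling Dlx- cells (31.8% and 43.2%), cycling Dlx+ cells and radial glia/astrocyte-like cells without an astrocyte marker (29.5% and 36.7%). Which intervals overlapped depended on the depth. Overlap of intervals does not show equal shares, and for Lhx2 no interval of the difference was taken. Thinned to 2000 UMIs, the shares lay apart in cycling Dlx- (48.0% and 64.5%), cycling Dlx+ (19.8% and 34.6%) and radial glia/astrocyte-like cells (49.6% and 61.0%), and overlapped in intermediate progenitor-like cells (79.1% and 89.4%) and those without an astrocyte marker (47.2% and 60.0%). Emx1 was found in 14.9% and 24.1% of intermediate progenitor-like cells, with intervals that overlapped (9.46 to 21.9 and 17.9 to 31.3). Emx1 was found in 10 of 173 WT and 7 of 139 cKO cycling Dlx- cells (5.78% and 5.04%), too few to give a direction, and at 2000 UMIs the shares were 8.77% and 15.2% and unthinned 24.7% and 37.4%. Cajal-Retzius-like cells had Emx2 in 29.2% and 28.8% (18.6 to 41.8 and 19.2 to 40.0). In radial glia/astrocyte-like cells Emx2 had shares of 6.41% and 7.13% and Pax6 20.6% and 18.8%, with overlapping intervals for each, while no thinned endothelial-like cell held either (0 of 176 WT and 0 of 68 cKO cells, which by the limit of 3 cells of the total allow up to 1.70% and 4.41%). Among GABAergic cells Sp8 was found in 14.7% of WT and 4.82% of cKO olfactory bulb neuroblast-like cells (12.4 to 17.2 and 3.17 to 6.99), with 0 of 176 cells (which allows a share of up to 1.70%) and 1.47% in endothelial-like cells. At median depths of 4226 and 5068 UMIs, unthinned, these Sp8 shares were 38.4% and 20.04%. The Sp8 intervals overlapped in CGE interneuron-like cells (8.74% and 1.74%, or 17.7% and 11.8% at 2000 UMIs) and in cycling Dlx+ cells (12.2% and 6.20%, or 18.6% and 10.2%). Pax6 in olfactory bulb neuroblast-like cells had thinned shares of 4.96% and 4.45% at 1000 UMIs, 9.16% and 5.69% at 2000, and 19.2% and 13.2% unthinned, and the intervals lay apart in the last alone. At 2000 UMIs the interval of the difference itself, -3.47 percentage points (-6.27 to -0.50), did not include 0.

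**Figure D3:**
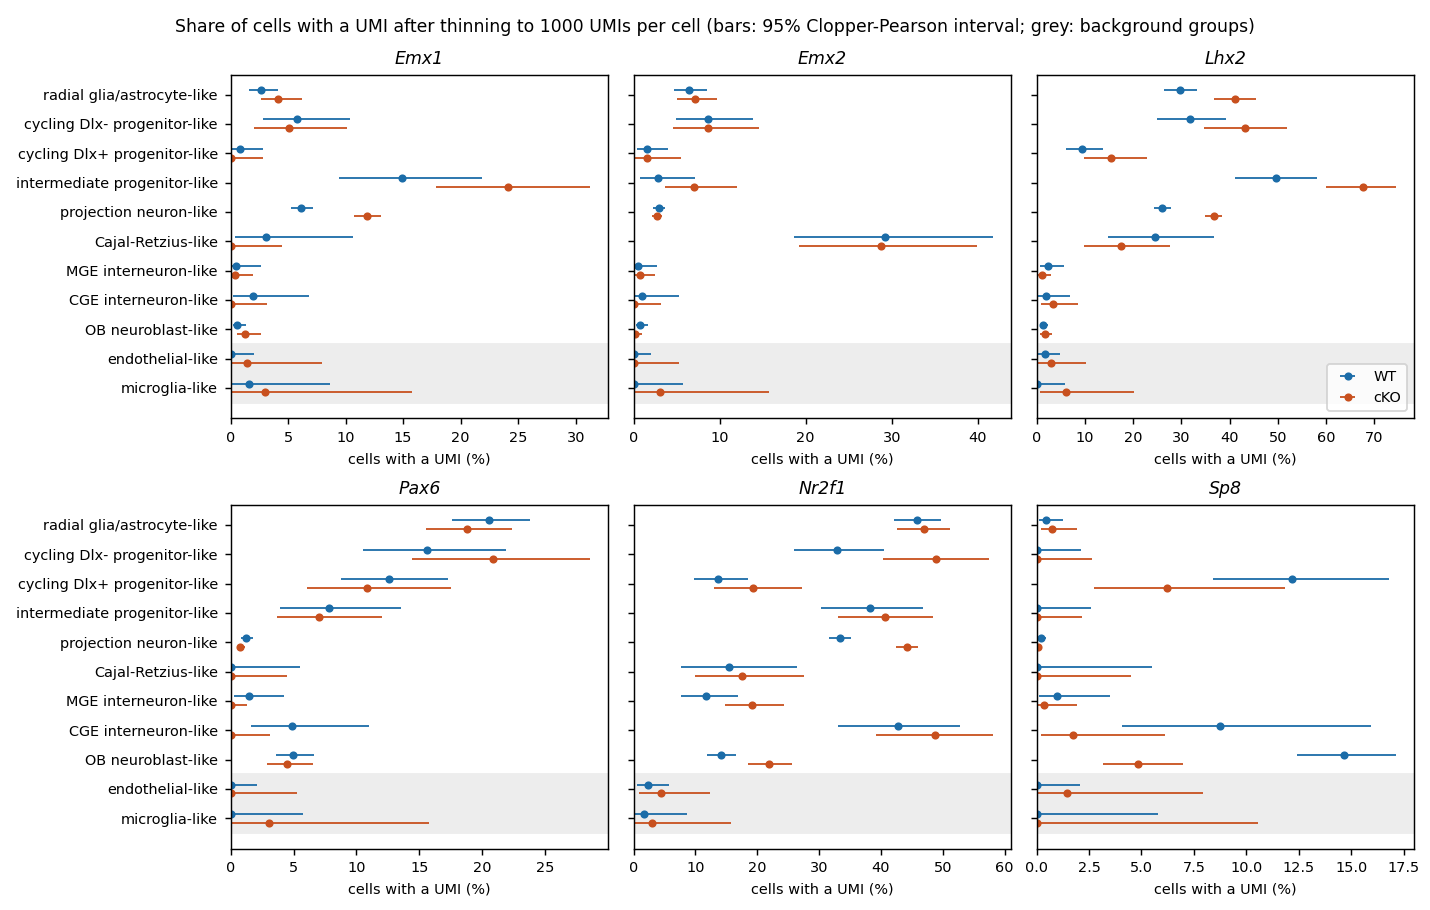
Share of cells with at least 1 UMI of each gene (x axis, percent) after thinning to 1000 UMIs per cell in 11 cell groups (y axis), WT in blue and cKO in orange, with 95% Clopper-Pearson intervals; the grey band marks endothelial-like and microglia-like cells, the background. Emx1, Lhx2 and Nr2f1 are in more projection neuron-like cells of cKO (11.9%, 36.7% and 44.2%) than of WT (6.16%, 26.1% and 33.4%), and Sp8 in fewer olfactory bulb neuroblast-like cells.

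Detection of pairs of factors in the same cells was described next. Among thinned projection neuron-like cells of WT, Lhx2 was found in 27.6% of the 163 cells with Emx1 (20.9 to 35.1) and in 26.0% of those without it. In cKO it was found in 47.8% of the 337 cells with Emx1 (42.3 to 53.3) and in 35.2% of those without it (33.4 to 37.2). Nr2f1 was in 42.4% of cKO cells with Emx1 and 44.5% of those without. For radial glia/astrocyte-like cells, Pax6 was in 24.8% of WT cells with Nr2f1 and 17.0% of those without (20.1 to 29.9 and 13.3 to 21.2), and in 19.6% and 18.0% in cKO. At 1000 UMIs per cell a gene with no UMI may still be expressed, and these shares are a description of detection in the same cells.

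The signals and partners of the factors were described from 4 lists with 40 genes. In projection neuron-like cells 30 of them had enough UMIs, of which 11 were higher and 4 lower (against 18.7% and 23.8% of all genes, which hold for each list in these cells), and their median log2 ratio was 0.18 against -0.17 for all genes. The 3 patterning signals measured there, of 12 listed, were called higher. Wnt5a was at 2.09 and 5.94 CPM (log2 ratio 1.505 (1.06 to 1.97)), Fgf18 at 3.22 and 7.01 CPM (1.12 (0.75 to 1.51)) and Wnt7b, a Wnt ligand of cortical neurons, at 67.3 and 118 CPM (0.81 (0.73 to 0.89)). Of 7 FGF receptors and feedback genes 2 were higher and 0 lower, against 18.7% and 23.8% of all genes, and 1 of the 2 was Spry1, an inhibitor that FGF signals induce (11.5 and 25.7 CPM, 1.16 (0.97 to 1.36)).

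Other transcription factors and cofactors that pattern the cortex were counted next. For projection neuron-like cells 3 of 9 were higher (18.7% of all genes) and 1 lower (23.8%), and for radial glia/astrocyte-like cells 4 of 10 (14.00%) and 1 (18.7%). In the latter Gli3, a mediator of dorsal fate that limits Sonic hedgehog signals, was at 60.6 and 133 CPM (log2 ratio 1.13 (0.93 to 1.34)), and Tfap2c at 40.2 and 84.9 CPM (1.08 (0.83 to 1.33)). Gli3 was also called higher in cycling Dlx- cells (1.04 (0.70 to 1.40)) and in intermediate progenitor-like cells (1.75 (0.80 to 2.83)). Radial glia/astrocyte-like cells also had more Lhx9 (0.65 (0.05 to 1.28)) and Etv5, a target of FGF signals (0.64 (0.40 to 0.88)), and less Bcl11a (-0.71 (-0.94 to -0.48)). Dmrt3, with 23 and 37 UMIs, had a ratio of 0.74 (-0.05 to 1.56), an interval that includes equal levels. In cycling Dlx- cells Tfap2c (0.78 (0.33 to 1.23)) and Fgfr2 (0.77 (0.21 to 1.33)) were higher. The largest differences there were lower values in cKO, of Crym with 92 and 28 UMIs (-1.58 (-2.24 to -0.95)) and of Wnt5a with 42 and 15 (-1.34 (-2.30 to -0.46)). In intermediate progenitor-like cells Epha7, an ephrin receptor, was lowest against WT, at 40.2 and 8.68 CPM (-2.21 (-3.28 to -1.24)). Bcl11a (-1.11 (-1.39 to -0.83)), Lmo4 (-0.95 (-1.28 to -0.62)) and Bhlhe22 (-0.56 (-0.99 to -0.13)) were lower there too, while Spry2 (0.81 (0.15 to 1.51)) and Lmo3 (0.65 (0.05 to 1.28)) were higher.

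The last list holds genes that mark areas in postmitotic neurons. Of 11 measured in projection neuron-like cells 3 were higher (18.7% of all genes) and 3 lower (23.8%), with a median of -0.03. Bhlhe22, a factor known for area identity in postmitotic neurons, was at 529.7 and 212 CPM (log2 ratio -1.32 (-1.36 to -1.28)), and Rorb, a marker of layer 4 and of sensory areas, at 82.9 and 33.2 CPM (-1.32 (-1.43 to -1.21)). Upper-layer neuron-like cells were 1866 of 2672 projection neuron-like cells in WT and 1597 of 2858 in cKO, and deep-layer ones 492 and 743. Bhlhe22 was among the 10 leading genes of the upper-layer group. The part of this makeup in the 2 differences was not tested. Cdh6 (0.698 and 1.39 CPM) and, from the transcription factors, Tfap2c (0.892 and 1.56 CPM) were higher at levels within the background given next. Over the 4 lists, radial glia/astrocyte-like cells had 5 of 28 genes higher (14.00% of all genes) and 3 lower (18.7%), with a median of 0.07 against -0.07 for all genes. Bhlhe22 was lower there as well (30.9 and 11.6 CPM, -1.42 (-1.89 to -0.96)), and Wnt5a was lower (16.3 and 8.79 CPM, -0.89 (-1.47 to -0.33)), on the other side of the median than in neurons, a difference that was not tested. Cycling Dlx- cells had 3 of 25 higher (14.6% of all genes) and 3 lower (18.1%), intermediate progenitor-like cells 3 of 17 (17.01%) and 5 (20.9%), and all kept cells 11 of 33 (18.2%) and 2 (24.8%). In all kept cells the 8 largest were higher, from 1.33 (1.02 to 1.64) for Fgf18, 0.88 (0.81 to 0.95) for Wnt7b, 0.87 (0.69 to 1.06) for Tfap2c and 0.81 (0.26 to 1.36) for Cdh6 to 0.71 (0.58 to 0.85) for Gli3, 0.64 (0.54 to 0.74) for Spry1, 0.62 (0.53 to 0.70) for Crym and 0.59 (0.57 to 0.61) for Id2.

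These genes were set against endothelial-like and microglia-like cells as well. In both libraries 4 of the 8 genes named in projection neuron-like cells lay above the endothelial-like interval and 3 above the microglia-like one, and Wnt7b, Rorb and Bhlhe22 lay above both. Spry1 and Wnt5a are counted among those not above the endothelial-like interval, but endothelial-like cells had 82.2 and 371 CPM of Spry1 and 17.8 and 40.8 CPM of Wnt5a, above the 24.2 and 37.8 and the 10.2 and 12.4 CPM of all kept cells, and so give no background for either gene. Against microglia-like cells both overlapped in the neurons of each library. Fgf18 lay above the endothelial-like interval alone, with 0 UMIs in microglia-like cells of either library, and Cdh6 and Tfap2c above neither. In radial glia/astrocyte-like cells the counts were 6 and 3 of 8, with Gli3, Tfap2c and Bcl11a above both, and Dmrt3 not above the microglia-like interval in either library, where it had 0 UMIs. Bhlhe22 there lay above both in WT, but its cKO level of 11.6 CPM overlapped the endothelial-like (6.04) and microglia-like ones (8.37), and Wnt5a lay above the microglia-like interval in WT alone. In cycling Dlx- cells the counts were 4 and 3 of 5, with Crym and again Wnt5a above the microglia-like interval in WT alone. In intermediate progenitor-like cells they were 3 and 5 of 7, with Epha7 and Lmo4 overlapping both in cKO. There Gli3 in WT and Spry2 in both libraries were not above the endothelial-like interval. The part of free RNA in these differences was not tested.

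**Figure D4:**
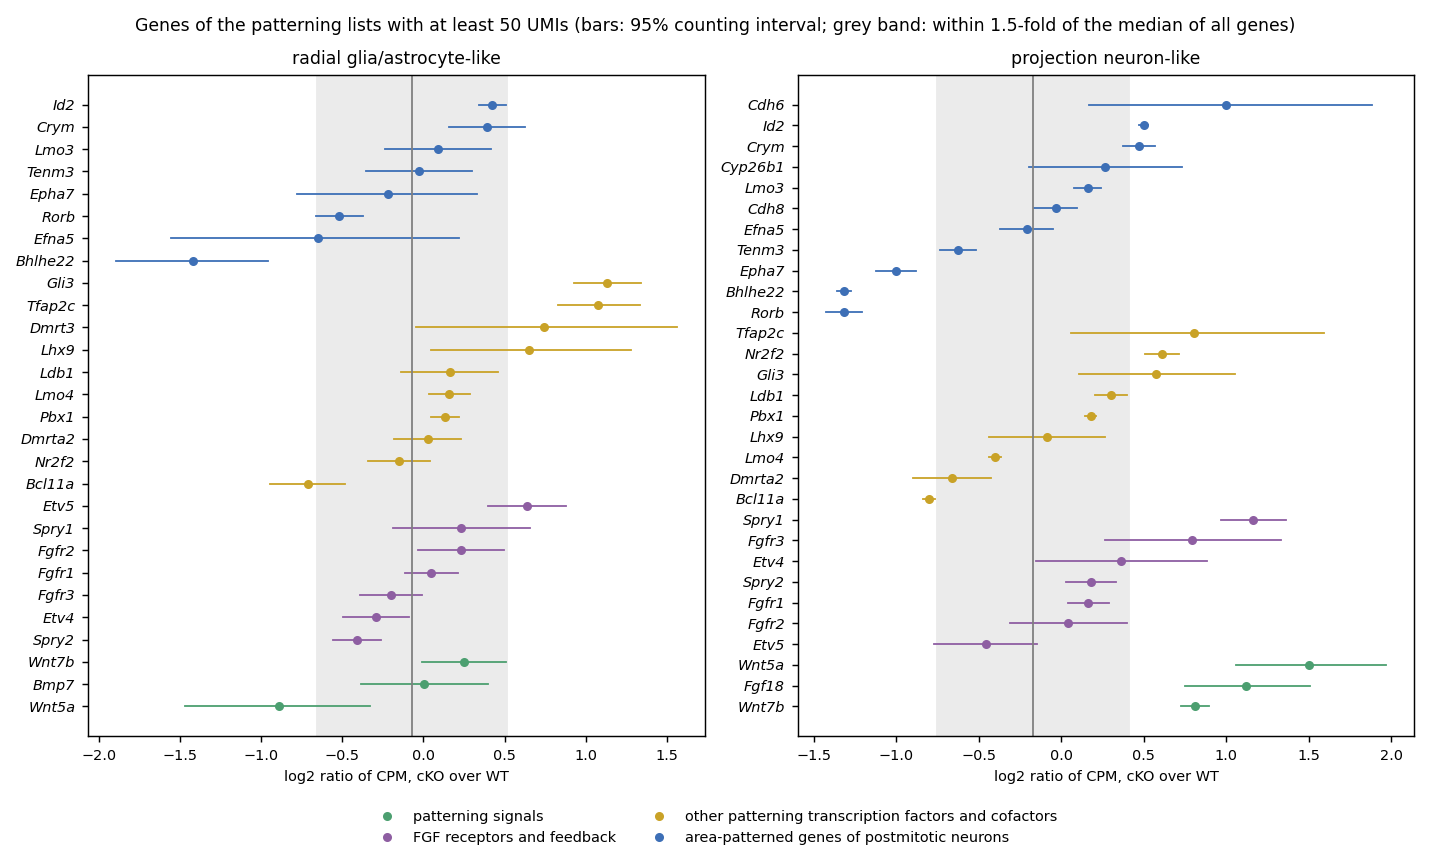
Log2 ratio of CPM, cKO over WT (x axis), of the genes of the 4 patterning lists with at least 50 UMIs (y axis, coloured by list) in radial glia/astrocyte-like (left) and projection neuron-like cells (right), with 95% counting intervals; the line is the median of all genes and the grey band lies within 1.5-fold of it. On the left Gli3 and Tfap2c lie above the band, and on the right Bhlhe22 and Rorb lie below it and Wnt5a, Spry1 and Fgf18 above.

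Genes whose levels were most like those of each factor were found with Pearson's r of log2(CPM + 10) over 28 points, 14 groups in each of the 2 libraries, among 7193 genes. The points share their library, depth and marker gates, and r is a description. Emx1 was most like Mdga1 (r = 0.90), then Dusp14 and Neurod1. For Emx2 it was Dmrta2 (0.95), then Nrg1 and Tmem163, for Lhx2 Arhgef26 (0.84), then Pdlim4 and Igsf8, and for Pax6 Fzd2 (0.95), then Ezr and Kcne1l. Sp8 was most like Sdk2 (0.85), then Tiam2 and Ctnnbl1, and Nr2f1 most like A830082K12Rik (0.90), then Spire1 and Gm3764. With log2(CPM + 1) the leading gene was Dusp14 for Emx1 and Kcne1l for Pax6 and stayed in place for the other 4. Among the 6 factors themselves Emx1 and Lhx2 were the most alike (0.81), followed by Lhx2 and Nr2f1 (0.77), and Emx2 and Sp8 the least (-0.38).

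Some of the factors share their locus with another annotated gene. A830082K12Rik overlaps Nr2f1 on the opposite strand, and since the sources do not say whether counting used strand, reads of the pair cannot be told apart with certainty. It held 1908 UMIs in WT and 1997 in cKO against 20349 and 31556 of Nr2f1. Emx2os, opposite Emx2, held 179 and 137, Pax6os1, opposite Pax6, 30 and 26, and Gm27197, opposite Lhx2, 195 and 69, while Gm13584, also opposite Lhx2, had 0 in both. Emx1 and Sp8 overlap no other gene in this annotation.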

How the data were processed

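Single-cell RNA sequencing gave 1 WT and 1 cKO library. The authors deposited for each a matrix of raw UMI counts per gene and barcode with no normalization. The submitters' processing notes name STAR, Cell Ranger 2, Seurat and mm9, the matrix header names Cell Ranger 3.0.1, and positions here come from GENCODE M21 (GRCm38), so no coordinate was read from the deposited data. The matrices hold 69554624 (WT) and 67448785 (cKO) UMIs.

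Cells with at least 500 genes and at most 10% mitochondrial UMIs were kept (6766 WT, 6080 cKO). Doublets were scored with Scrublet (scanpy 1.11.5), and cells with a score over 0.25 were removed (151 and 107), a limit set after the scores were seen because the automatic one called 131 and 0. A cell joined a group with at least 2 markers and 3 UMIs of its list, and the list with the largest share of its markers found won. Cells with at least 3 cycling markers were set apart and divided by Dlx UMIs (0, or at least 2), and at least 2 markers decided the finer groups. Barcodes with no group (313 and 393) or a tie (68 and 41) stayed out. UMIs were summed per group and library and divided by the group's total (CPM), with exact Poisson intervals, conditional binomial intervals for ratios and Clopper-Pearson intervals for shares. With 1 library per genotype no test was run. The code was tested on simulated counts.

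The rule for names took the 6 factors in every group (those the text leaves out are in the plots of levels and ratios), genes of the 4 patterning lists with at least 50 UMIs, past 1.5-fold from the group median and with an interval that excludes it (at most 8 per group, the largest), the 3 genes with the highest r for each factor, and genes that overlap a factor. Members and lists were chosen with earlier results of these data known. 1 gene of the patterning lists is not reported here and was left out of their counts. Alternatives were other cell filters, doublet rules, marker gates, scaling by TMM (edgeR 4.0.16, R 4.3.3), the mean of each cell's CPM, and other thinning depths, limits and pseudocounts. Python 3.11.15, numpy 2.4.6, scipy 1.17.1 and pandas 2.3.3 were used.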

Additional observations from a re-analysis of the deposited data

Results flagged for a closer look

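The Pax6 ratio between the libraries stood on opposite sides in cell groups of different lineage. The log2 ratio of CPM, cKO over WT, was 0.57 in cycling Dlx- cells, -0.36 in cycling Dlx+ cells and -0.85 in olfactory bulb neuroblast-like cells, with 301 and 405, 455 and 236, and 288 and 119 UMIs in WT and cKO. Both cycling groups lay within the 1.5-fold limit. The last ratio was -0.22 under the stricter filter, and its shares thinned to 1000 UMIs overlapped (4.96% and 4.45%). Radial glia/astrocyte-like cells without an astrocyte marker had the highest ratio, 0.58, with levels that overlapped (102 and 153 CPM, 73.2 to 140 and 126 to 184). With 1 library in each genotype the difference between these groups was not tested, and the only sample of each genotype sets every direction.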

How the results depend on the processing

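Of 399 alternative values of 45 log2 ratios of the factors, 320 stayed within counting error of the reported value, 79 moved further and 0 turned a called direction. The 45 ratios leave out upper-layer, deep-layer and striatal neuron-like, MGE and CGE interneuron-like, astrocyte-like and OPC-like cells. They also leave out radial glia/astrocyte-like cells without an astrocyte marker, so the ratios of all these groups were not put under an alternative. The causes of the moves were not tested. The stricter filter (at least 1000 genes, at most 5% mitochondrial UMIs) moved 26 of 45 ratios. This filter kept 1637 WT and 1317 cKO cells, 24.7% and 22.0% of the cells used for the reported values. Of projection neuron-like cells it left 294 and 454, of olfactory bulb neuroblast-like cells 122 and 58, and of intermediate progenitor-like cells 38 and 36. Its values thus come from a small part of the cells. Among those that answer a comparison it gave 0.55 for Emx2, 1.01 for Lhx2, 0.24 for Pax6 and 0.75 for Nr2f1 in all kept cells, 0.35 for Emx1 and -0.089 for Emx2 in radial glia/astrocyte-like cells, 0.96 for Lhx2 and 1.07 for Nr2f1 in projection neuron-like cells, and -0.22 for Pax6 in olfactory bulb neuroblast-like cells. Among the others its values were furthest off for Emx1 in olfactory bulb neuroblast-like (3.35, reported 1.40) and GABAergic neuron-like cells (2.18, 0.88), Emx2 in GABAergic neuron-like cells (1.01, 0.19) and projection neuron-like cells (0.65, 0.18), Pax6 in intermediate progenitor-like (1.06, 0.08), projection neuron-like (0.77, 0.04) and GABAergic neuron-like cells (-0.31, -0.87), and Lhx2 in olfactory bulb neuroblast-like cells (1.76, 1.23). TMM factors, which move every ratio of a group by 1 amount, gave 1.28 for Emx1, 0.70 for Emx2, 1.09 for Lhx2, 0.12 for Pax6, 0.92 for Nr2f1 and -0.92 for Sp8 in all kept cells, 0.84 for Lhx2 and 0.27 for Nr2f1 in radial glia/astrocyte-like cells, and 1.06 for Emx1, 0.85 for Lhx2 and 0.81 for Nr2f1 in projection neuron-like cells. The mean of each cell's CPM gave 1.11 for Emx1, 0.28 for Emx2, -0.28 for Pax6, 0.72 for Nr2f1 and -1.35 for Sp8 in all kept cells, and 1.04 for Emx1 and 0.70 for Nr2f1 in projection neuron-like cells. The WT makeup of cell groups gave 0.87 for Emx1, 0.19 for Emx2, 0.71 for Lhx2, -0.034 for Pax6, 0.57 for Nr2f1 and -0.92 for Sp8 in all kept cells. Without a filter on cells the values were 0.63 for Nr2f1 in all kept cells, 0.24 for Nr2f1 in radial glia/astrocyte-like cells, and 0.70 for Lhx2 in projection neuron-like cells, without doublet removal 0.23 for Nr2f1 in radial glia/astrocyte-like cells, with at least 3 markers in the gate 0.56 for Nr2f1 in projection neuron-like cells, and with the gate on counts thinned to 2000 UMIs, which moved 16 of 39 ratios, -0.28 for Pax6 and -0.71 for Sp8 in olfactory bulb neuroblast-like cells. It also moved Emx1 in intermediate progenitor-like cells (0.15), Emx1 and Lhx2 in olfactory bulb neuroblast-like cells (0.50 and 0.20) and Sp8 in cycling Dlx+ cells (-0.87). Leaving mitochondrial, ribosomal protein and haemoglobin genes out of the total moved 0 ratios. Removing the highest 5% of doublet scores, like the WT makeup chosen after seeing the data, moved 1.

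Low counts limit the ratios. Of 13 groups, at least 50 UMIs were reached in 3 for Sp8, 7 for Emx1, 9 for Emx2, 9 for Pax6, 12 for Lhx2 and 13 for Nr2f1. The part of depth in this was not tested. No paired analysis was possible because each genotype had 1 library, and for the same reason no library was left out.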
